A study of Mus musculus with 9 samples.

Results

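Promoter-like H3K27ac regions that were called in both Kdm6a-deficient mouse pancreatic cancer lines and not in the Kdm6a wild-type line are described here. The 3 H3K27ac lists were merged by overlap on chromosomes 1 to 19. A merged region was kept when both KO lists overlapped it by at least 1 bp, the WT list did not, and at least 1 H3K4me3 list of any line did. These criteria gave 1183 regions, called members here, of 26106 merged H3K27ac regions, 13080 of which met H3K4me3 and are called promoter-like. With or without H3K4me3, 9.68% of all merged regions had H3K27ac of both KO lines and none of WT, and 9.04% of the promoter-like regions were members. Members were chosen by their H3K27ac calls and by the presence of H3K4me3, so both are given as description and nothing is read from those shares. The H3K27me3 lists played no part in the choice.

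The lines were a female KDM6A-KO line, a male KDM6A-KO line and a male KDM6A-WT line, called female KO, male KO and WT. Their source was pancreas, the mice were of mixed C57BL/6-SV129 strain, and the cells grew in F12/DMEM with EGF and without treatment. The series describes its lines as established from mouse pancreatic cancers lacking Kdm6a, and the origin of the WT line is given by its label only. Chromatin immunoprecipitation and sequencing gave 1 library per mark and line, 9 in all. No group had a replicate and each genotype and sex combination was 1 cell line. No p-value was computed, each difference is one between libraries, and female KO differs from WT in sex as well as in genotype. The lists carry no gene names, so neither cell type markers nor the Kdm6a deletion was looked at.

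Kdm6a, an X-linked gene, codes for an enzyme that takes methyl groups off H3 lysine 27. Trimethylation of that residue (H3K27me3) is deposited by Polycomb complexes at silenced genes, and acetylation of the same residue (H3K27ac) marks active promoters and enhancers. A lysine cannot carry both. H3K4me3 marks promoters, and promoters of developmental genes often carry H3K4me3 and H3K27me3 together, a state called bivalent. The question at the members was whether the places acetylated in both KO lines had, in WT, a promoter without acetylation, a bivalent promoter, a silenced region or none of these.

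The libraries differed in depth. Between 2396174 and 18507923 reads lay in the regions of a library, and the WT libraries for H3K27ac and H3K27me3 had the fewest reads of their mark. Over windows that all 3 lists of a mark hold, H3K27ac reads per kb were 1.80 times those of WT in female KO and 2.23 times in male KO. For H3K27me3 these factors were 3.82 and 1.31, and for H3K4me3 they were 1.08 and 0.683. Total reads per library are unknown. Ranges in brackets after a share are 95% Wilson intervals. They hold counting error alone and take regions as independent. A region missing from a list was not called there, which is not the same as having no reads.

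Most members had H3K4me3 in WT already. The WT H3K4me3 list overlapped 1004 of the 1183 members, 84.9% (82.7 to 86.8%). Female KO had H3K4me3 at 1132 members, 95.7%, and male KO at 1104, 93.3%. Over all 13080 promoter-like H3K27ac regions the shares were 92.5% in WT, 84.5% in female KO and 89.4% in male KO. At regions whose H3K27ac was in all 3 lists the WT share was 98.0% (97.7 to 98.2%), and at regions of WT and neither KO it was 97.0% (94.2 to 98.5%). At regions of a single KO line, which like members lack H3K27ac in WT, it was 65.9% (61.9 to 69.6%) for female KO and 65.5% (62.5 to 68.5%) for male KO. The WT share at members lay below the sets with H3K27ac in WT and above the sets of 1 KO line. The WT H3K4me3 list could itself admit a region, so this order is description only.

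All 3 H3K4me3 lists overlapped 977 members, 82.6%, against 78.8% of all promoter-like regions. A further 83 members had H3K4me3 in both KO lines and not in WT, 7.02% (5.70 to 8.61%), against 1.9% of all promoter-like regions. H3K4me3 of female KO alone was found at 63 members, 5.33%, against 2.42%, and of male KO alone at 33, 2.79%, against 3.14%. It was at 9 members in female KO and WT, 0.761%, against 1.33%, and at 11 in male KO and WT, 0.930%, against 5.58%. Members rarely lacked H3K4me3 in a KO line while having it in WT. The criteria favour this, so nothing is read from it. Only 7 members had H3K4me3 in WT and neither KO, 0.592%, against 6.82% of all promoter-like regions. The comparisons of the 2 KO lines share the WT libraries here and throughout.

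H3K27me3 was present in WT at 199 members, 16.8% (14.8 to 19.1%). Over all promoter-like regions it was present at 8.58%, and at those in all 3 H3K27ac lists at 3.74% (3.37 to 4.15%). Members stood above the regions of all 3 lists in each width band. Below 4 kb the WT share was 17.9% at 335 members and 3.99% at 551 regions of all 3 lists. From 4 to 8 kb it was 15.1% and 3.50%, and from 8 kb on it was 18.5% and 3.83%.

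WT H3K27me3 was not more frequent at members than at other promoter-like regions that lack H3K27ac in WT. It was present at 17.9% (15.0 to 21.3%) of the 580 regions of female KO alone and at 40.8% (37.8 to 43.9%) of the 975 regions of male KO alone. The 2 marks exclude each other on a histone, so regions chosen for missing WT acetylation are not independent of WT H3K27me3. Without H3K4me3, the 1344 regions acetylated in both KO lines and not in WT had WT H3K27me3 at 2.75% (2.0 to 3.77%).

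In the KO lines H3K27me3 lay at 418 members in female KO, 35.3% (32.7 to 38.1%), and at 210 in male KO, 17.8% (15.7 to 20.03%). Over all promoter-like regions these shares were 30.6% and 14.1%. Male KO and WT thus had H3K27me3 at nearly the same share of members, while at regions of all 3 lists the male KO share was 8.89% and that of WT 3.74%. The female KO library has the highest H3K27me3 read density of the 3 and its list covers the most sequence. With both KO lists shortened to the covered length of WT, the shares were 9.55% in female KO and 11.1% in male KO. The shortening kept the KO regions with the most reads and left the WT list whole. It lowers the KO shares by construction, so nothing is read from their place below WT.

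**Figure D1:**
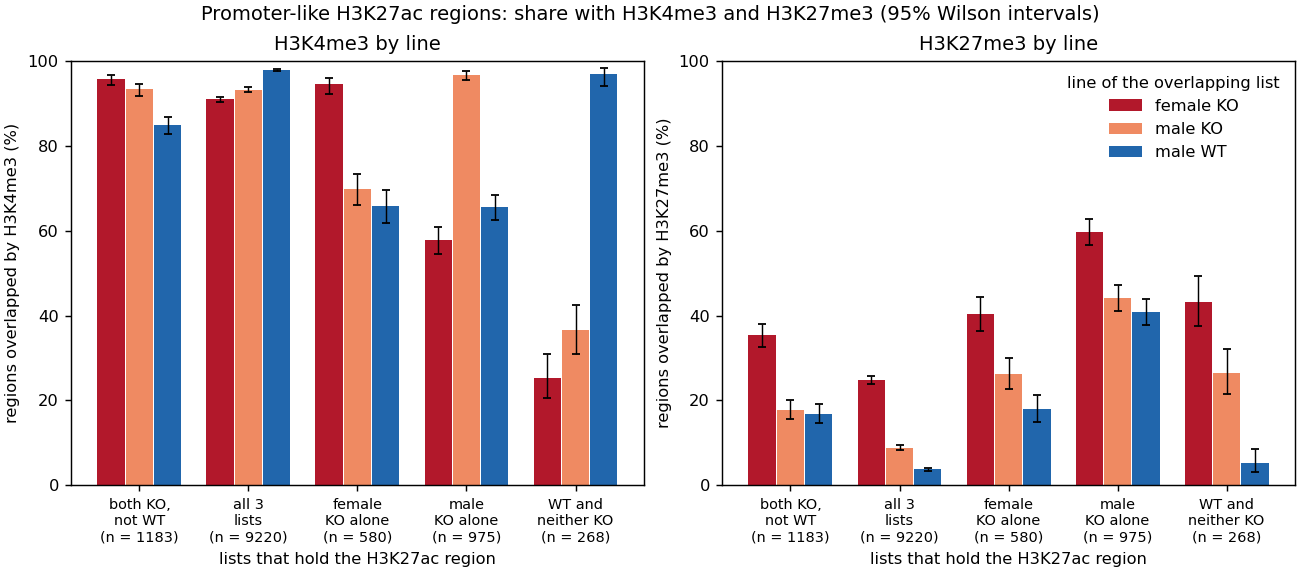
Share of promoter-like H3K27ac regions (y axis, %) overlapped by H3K4me3 (left) and H3K27me3 (right) of each line, for 5 sets of regions by the lists that hold them (x axis); bars are 95% Wilson intervals. Members (both KO, not WT) had WT H3K27me3 at 16.8%, above the 3.74% of regions in all 3 lists and below the 40.8% of regions of male KO alone.

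Members fell into 4 classes by their state in WT. A promoter mark without H3K27me3 was found in WT at 828 members, 70.0%, against 85.5% of all promoter-like regions. Both H3K4me3 and H3K27me3, the bivalent combination, were at 176 members, 14.9%, against 7.06%. H3K27me3 without H3K4me3 was at 23 members, 1.94%, against 1.51%. Neither mark was called at 156 members, 13.2%, against 5.96%. Of the 9220 regions in all 3 H3K27ac lists, 3.64% were bivalent in WT and 1.94% had neither mark. The bivalent class and the unmarked class were both more frequent among members than over all promoter-like regions. Of those 13080 regions, 9220 have H3K27ac in all 3 lists, while members lack it in WT by the criteria. Nothing particular to members is therefore read from these excesses. The class with H3K27me3 alone was close to its background.

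The classes differed in size and in the strength of H3K4me3. Median widths were 5 kb for H3K4me3 alone and for the bivalent class, 10.8 kb for H3K27me3 alone and 7.8 kb for neither mark. H3K4me3 regions in female KO had a median of 139 reads per kb covered at members with H3K4me3 alone in WT, 125 at bivalent members and 44.4 at members with neither mark. In male KO the medians were 96.3, 94.5 and 32.5 reads per kb. Members unmarked in WT therefore carried the thinnest H3K4me3 in the KO lines, over a median of 2.4 kb in female KO and 1.8 kb in male KO. H3K27ac density differed little between the classes, with medians from 39.3 to 43.5 reads per kb in female KO and from 48.7 to 54.9 in male KO.

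**Figure D2:**
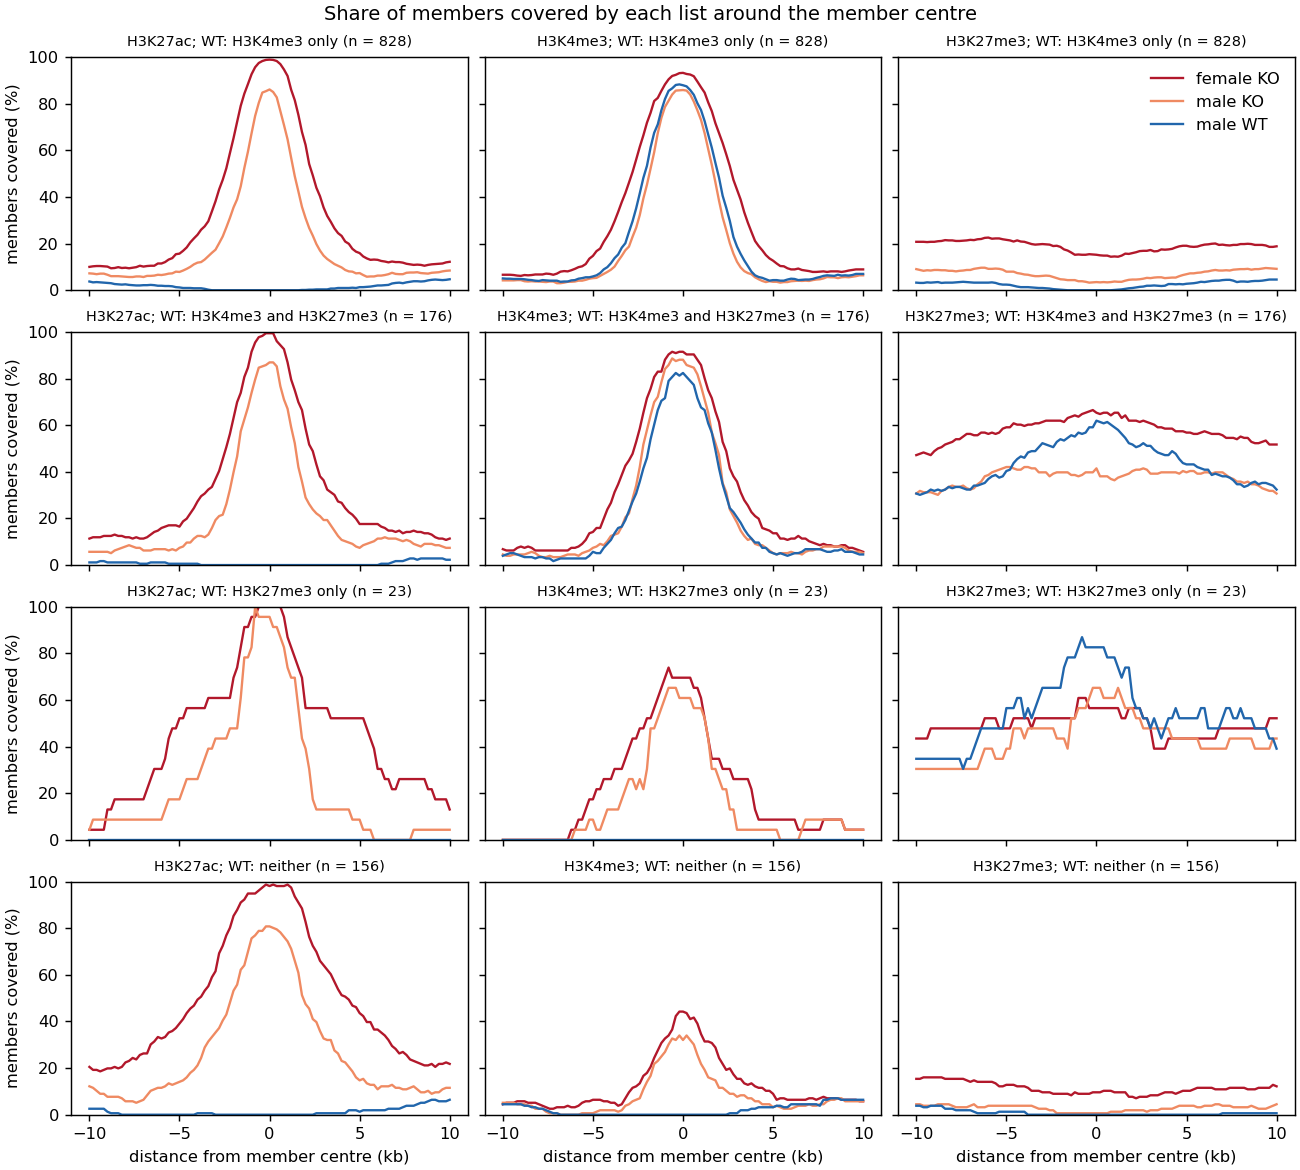
Share of members (y axis, %) covered by each list at each distance from the member centre (x axis, kb), by mark (columns) and by state in WT (rows), 1 line per cell line. At bivalent members H3K27me3 covered the centre in 61.9% of members in WT, 65.3% in female KO and 41.5% in male KO. Within about 4 kb of the centre the WT curve peaks and the male KO curve is nearly level, and farther out both fall. Bivalent members were chosen for WT H3K27me3, which favours WT in this comparison.

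At most of the 176 bivalent members H3K4me3 of each line lay over the member centre. The member centre was covered by H3K4me3 in 82.4% of them in WT, 91.5% in female KO and 88.1% in male KO. H3K27me3 at 4 kb to the left was at 46.0% in WT, 59.7% in female KO and 42.0% in male KO, and at 4 kb to the right at 47.2%, 58.5% and 39.8%. The male KO share was below WT at all 3 positions, with the widest gap at the centre. These members were chosen for WT H3K27me3, which favours WT, so nothing is read from that gap. At the 828 members with H3K4me3 alone in WT, female KO H3K27me3 covered the centre in 15.2% and the position 4 kb to the left in 20.8%.

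In the lists as deposited, most members with WT H3K27me3 had it in the KO lines too. Of the 199, 163 had H3K27me3 in female KO, 81.9% (76.0 to 86.6%), and 125 in male KO, 62.8% (55.9 to 69.2%). These shares were lower than at the 345 regions with WT H3K27me3 in all 3 H3K27ac lists, where they were 94.8% and 81.7% (77.3 to 85.5%). At the 398 such regions of male KO alone they were 89.9% and 81.9% (77.8 to 85.4%). With the KO lists shortened to the covered length of WT, 65 of the 199 members had it in female KO, 32.7%, and 87 in male KO, 43.7%, against 55.9% and 66.1% at the 345 regions. The members' shares were below those of the 345 regions in both settings. The statement that most members had it in the KO lines ended with the shortened lists, which lower KO shares by construction.

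H3K27me3 in WT and neither KO line was found at 28 members, 2.37% (1.64 to 3.40%), against 0.52% of all promoter-like regions. It was at 15 of the 9220 regions of all 3 lists. The criteria ask for H3K27ac in both KO lines and none in WT. The 2 marks exclude each other on a histone, so the criteria favour this pattern and nothing is read from the excess. A further 46 members had H3K27me3 in WT and female KO, 3.89%, against 1.25%, and 8 in WT and male KO, 0.676%, against 0.283%. Among members with WT H3K27me3, male KO thus lacked it more often than female KO in the lists as deposited. This order was reversed with the shortened KO lists, where 65 of the 199 members had H3K27me3 in female KO and 87 in male KO. No difference between the KO lines is read from it. With the KO lists shortened to the covered length of WT, keeping their regions with the most reads, the 28 became 100. Shortening the KO lists alone raises this count by construction.

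The opposite pattern, H3K27me3 in both KO lines and not in WT, was at 75 members, 6.34% (5.09 to 7.87%). This is close to the 6.68% of all promoter-like regions. With the shortened KO lists the 75 became 15, a fall that shortening the KO lists alone brings by construction. H3K27me3 of female KO alone was at 180 members, 15.2%, also close to its background of 16.1%, and of male KO alone at 10 members, 0.845%, against 0.619%. All 3 H3K27me3 lists met at 117 members, 9.89%, against 6.52%, and 719 members, 60.8%, had H3K27me3 in no line, against 68.0%.

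**Figure D3:**
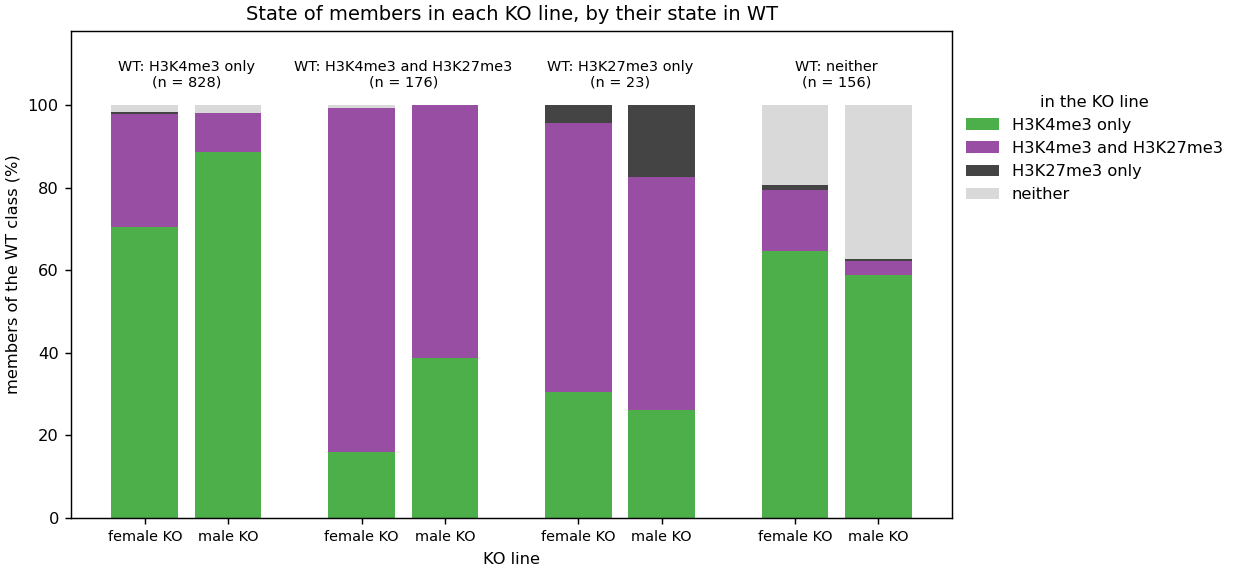
State of members in female KO and male KO (stacked bars, y axis in % of the class) for the 4 classes by state in WT (groups along the x axis). Of the 176 members bivalent in WT, 83.5% stayed bivalent in female KO and 61.4% in male KO, and the rest had H3K4me3 alone except for 1 member with neither mark in female KO.

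Of the 176 members bivalent in WT, 28 had H3K4me3 alone in female KO, 15.9% (11.2 to 22.0%), and 68 in male KO, 38.6% (31.8 to 46.0%). Over all 924 promoter-like regions bivalent in WT these shares were 7.25% and 20.7%. Of the 828 members with H3K4me3 alone in WT, 227 were bivalent in female KO, 27.4%, and 78 in male KO, 9.42%. Over all 11179 promoter-like regions of that state they were 21.4% and 7.08%. H3K4me3 alone was thus more frequent at the bivalent members than over all promoter-like regions bivalent in WT. Members were chosen for H3K27ac in both KO lines, which excludes H3K27me3 on the same histone, and the 924 regions were not. That excess is given as description only. Both KO states need H3K4me3 in the KO line, which the criteria favour at members. In female KO, 9.88% of the 11179 regions had neither mark and 3.72% had H3K27me3 alone. For the 828 members these shares were 1.69% and 0.36%. Nothing is therefore read from the higher share of those members that was bivalent in a KO line. Of the 23 members with H3K27me3 alone in WT, 15 were bivalent in female KO and 13 in male KO, while 7 and 6 had H3K4me3 alone. Of the 156 members unmarked in WT, 101 had H3K4me3 alone in female KO and 92 in male KO. Members of these classes have no H3K4me3 in WT, so the criteria required it in at least 1 KO line, and nothing is read from its presence there.

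H3K27me3 and H3K27ac of the same KO line shared 200 bp windows at many members. Of the 418 members with H3K27me3 in female KO, 413 had windows in both lists, 98.8%, and of the 210 in male KO, 173 had, 82.4%. At regions of all 3 lists these shares were 97.2% and 71.3%, so that of female KO was near its share there. The median share of the line's own H3K27ac length under H3K27me3 was 75% in female KO and 60.2% in male KO. At regions of all 3 lists with H3K27me3 these medians were 31.3% and 11.1%. Promoter-like regions of all 3 lists were wider than members, with medians of 10 and 5.4 kb, and width was not matched here. Such lists do not tell whether the marks lie on the same DNA molecules or in different cells of the culture.

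In WT the H3K27me3 lay over the promoter mark. At the 176 bivalent members the median share of WT H3K4me3 length under H3K27me3 was 77.8%, against 14.2% at bivalent regions of all 3 H3K27ac lists. H3K27me3 covered at least 50% of the member at 125 of the 199 members with it in WT, and at 37 of the 345 such regions of all 3 lists. The latter regions were wider, with a median of 10 kb for all promoter-like regions of the 3 lists against 5.4 kb for members. They also have H3K27ac in WT, which members lack by the criteria. Nothing particular to members is therefore read from these contrasts.

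Among the 117 members with H3K27me3 in all 3 lines, its median length within the member was 3.2 kb in WT, 4.6 kb in female KO and 3.8 kb in male KO. It was shorter than in WT at 12 members in female KO and 33 in male KO, and longer at 70 and 52. Reads per kb were compared over windows that all 3 lists hold, minus the median of the same log2 ratio over all H3K27me3 regions, 1.48 for female KO and 0.28 for male KO. After that, the median log2 difference from WT over 116 members was 0.27 in female KO and -0.04 in male KO. Over 849 promoter-like regions it was 0.44 and 0.05, and over 278 regions of all 3 lists 0.63 and 0.08, so the member medians were the lowest of these sets in both KO lines. Without centring the member medians were 1.75 and 0.24.

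Relative to H3K4me3 regions in general, H3K4me3 was stronger in the KO lines than in WT at members with windows held by all 3 H3K4me3 lists. Ratios were again centred, on medians of 0.06 for female KO and -0.53 for male KO over 11642 H3K4me3 regions. Over 976 members the median log2 difference from WT was 0.18 in female KO and 0.25 in male KO. Over the 8171 such regions of all 3 H3K27ac lists it was 0.00 and -0.04, and over the 53 regions of WT and neither KO it was -0.68 and -0.20. The direction of the H3K4me3 difference thus went with the line that held H3K27ac. Without centring the member medians were 0.24 and -0.28, so the male KO difference is a rise only relative to other H3K4me3 regions.

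A rise of H3K4me3 by more than 2-fold over WT was seen at 68 of the 976 members in female KO, 6.97%. The share was 1.43% over the 10287 promoter-like regions with windows held by all 3 H3K4me3 lists. In male KO such a rise was seen at 93 members, 9.53%, against 2.45% of those regions. A fall of more than 2-fold was seen at 6 members in female KO and none in male KO, against 2.17% and 0.476%. Both KO lines passed 2-fold upward at 45 members, 4.61%, against 0.622%, and downward at none, against 0.224%. The 10287 regions include the members, which are 45 of the 64 that passed upward in both. The 2 ratios share the WT library. Without centring, 21 members passed upward in both lines, 76 in female KO and 29 in male KO, and 24 passed downward in male KO.

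Strong H3K4me3 differences were most frequent at members that were bivalent in WT. Of the 175 bivalent members with such windows, 43 passed 2-fold in female KO, 24.6%, and 54 in male KO, 30.9%. Of the 801 members with H3K4me3 and no H3K27me3 in WT, 25 passed in female KO, 3.12%, and 39 in male KO, 4.87%. The median log2 differences were 0.41 and 0.60 at the bivalent members and 0.14 and 0.20 at the others. Bivalent members thus stood above the other members in both KO lines. At 326 regions bivalent in WT with H3K27ac in all 3 lists the medians were 0.00 and 0.05. Of the 45 members past 2-fold in both KO lines, 35 had H3K27me3 in WT, 77.8%, where 17.9% of the 976 members did. Without centring, 46 of the 175 bivalent members passed 2-fold in female KO and 22 in male KO, with medians of 0.47 and 0.07.

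The median H3K4me3 difference also varied with the lines that had H3K27me3. At 23 members with H3K27me3 in WT and neither KO, the median log2 difference was 0.79 in female KO and 0.59 in male KO. At 44 members where male KO alone lacked it, the medians were 0.59 and 0.76, and at 5 members where female KO alone lacked it they were 1.15 and 1.11. At 103 members with H3K27me3 in all 3 lines they were 0.25 and 0.47, and at 567 members with H3K27me3 in no line 0.15 and 0.17. Members with H3K27me3 in both KO lines and not WT had medians of 0.04 and 0.29 (n = 69), and those with it in female KO alone 0.16 and 0.27 (n = 157). The medians of the groups with WT H3K27me3 were thus above those of the groups without it, whether or not a KO line still had H3K27me3.

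**Figure D4:**
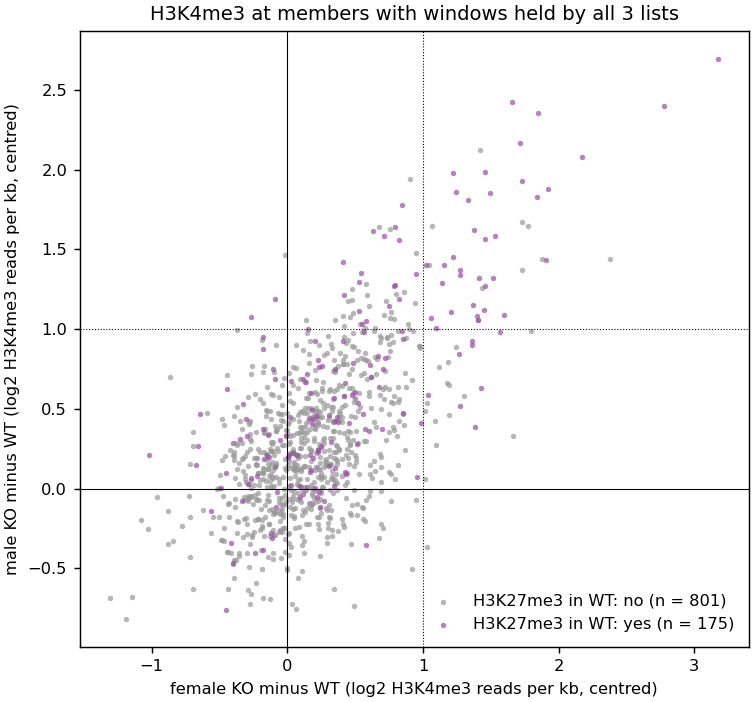
Centred log2 difference in H3K4me3 reads per kb from WT in female KO (x axis) and male KO (y axis) at 976 members, coloured by H3K27me3 in WT. Both axes use the same WT library; dotted lines mark 2-fold, and 35 of the 45 points beyond both lines had H3K27me3 in WT.

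Single members show these states. In each class the 5 members with the highest smaller KO H3K27ac count were taken, and most of them are given here. Where a region of a list extends past the member, its reads were counted in proportion to the length inside. Reads are as counted and carry each library's depth, while log2 differences are centred and per kb of shared windows. Among members with H3K4me3 alone in WT, the first was chr6:34545601-34594400 (mm9). H3K27ac there had 3875 reads over 48.8 kb in female KO and 3027 reads over 34.2 kb in male KO. H3K4me3 had 1908 reads over 14.8 kb in female KO, 877 over 11.4 kb in male KO and 155 over 3.4 kb in WT. The log2 H3K4me3 differences were 1.73 and 1.67, and no line had H3K27me3. Here WT had a small promoter mark, and the KO lines a promoter mark several times longer inside a broad acetylated domain.

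In contrast, chr11:61314201-61362200 had H3K4me3 of near the same strength in all lines, 476 reads in WT, 533 in female KO and 308 in male KO. Its H3K27ac held 1642 reads over 48 kb in female KO and 1369 over 30.6 kb in male KO. The log2 H3K4me3 differences were -0.18 and 0.10. H3K27me3 was called there in female KO alone, over 3.2 kb with 89 reads. On chr7:56129401-56164200 H3K4me3 had 1015 reads in WT, 2405 in female KO and 767 in male KO, and on chr5:109978801-109989400 it had 513, 1061 and 997. The log2 differences were 0.41 and 0.35 on the former and 0.82 and 0.55 on the latter. Neither carried H3K27me3 in any line. H3K27ac called in the KO lines alone was thus seen both with and without a difference in H3K4me3.

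The first bivalent member, chr7:56495401-56520000, had H3K27ac with 1390 reads in female KO and 1474 in male KO. H3K27me3 covered 15 kb of it in female KO, none in male KO and 3.8 kb in WT. H3K4me3 had 485 reads in WT, 1825 in female KO and 782 in male KO. On chr2:109512001-109525000 H3K27me3 covered 5.2 kb in female KO and 5.6 kb in WT and was again not called in male KO. H3K4me3 there had 556 reads in WT, 1660 in female KO and 943 in male KO, log2 differences of 1.14 and 1.29. At both places acetylation was called in female KO although H3K27me3 was still in its list.

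On chr11:119404001-119421200 H3K27me3 lay in all 3 lines, over 17.2 kb in female KO, 15.2 kb in male KO and 14.6 kb in WT. H3K27ac was called there over 17.2 kb in female KO and 15 kb in male KO, with 734 and 719 reads, so both lists of each KO line covered most of the member. The log2 H3K4me3 differences were 1.22 and 1.45. On chr2:167361201-167386200 H3K27me3 covered 21.8 kb in female KO, 7.2 kb in male KO and 7.6 kb in WT, and H3K4me3 was small in all lines, with 164, 111 and 85 reads. The fifth, chr7:73569601-73604800, had H3K27me3 over 6.6 kb in female KO, 4.8 kb in male KO and 3.8 kb in WT.

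Among members with H3K27me3 and no H3K4me3 in WT, chr9:119466601-119489800 came first. H3K27ac had 940 reads in female KO and 1194 in male KO, and H3K4me3 had 344 and 428. H3K27me3 covered 22.4 kb in female KO, 11.8 kb in male KO and 14.4 kb in WT, so the promoter mark appeared in the lists of both KO lines while H3K27me3 remained. On chr9:108848801-108868600 H3K27me3 covered 2.8 kb in WT with 42 reads and was called in neither KO line, where H3K4me3 had 613 and 244 reads. The 5th, chr4:109647201-109656400, had H3K4me3 over 8.4 kb with 1409 reads in female KO and over 7.8 kb with 596 reads in male KO. H3K27me3 there covered 6 kb in WT, all 9.2 kb in male KO and none in female KO, so the KO lines differed.

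The 5 members taken from those unmarked in WT were between 14.4 and 52.2 kb wide, with little H3K4me3. On chr6:146873601-146923200, 3838 H3K27ac reads in female KO and 2689 in male KO went with 247 H3K4me3 reads in female KO and none called in male KO. On chr6:120025601-120077800 H3K4me3 had 228 reads in female KO alone, over 3.8 kb of 52.2 kb. On chr13:43352201-43372800 and chr2:13468801-13483200 it was also in female KO alone, with 114 and 142 reads. Only chr3:57300401-57320600 of the 5 had it in both KO lines, with 354 and 106 reads. None of the 5 had H3K27me3 in any line. These 5 members met the promoter criterion through thin H3K4me3 over a small part of their length.

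H3K27me3 in WT and neither KO was found on chr13:83865801-83874000, where it covered 8 of 8.2 kb in WT with 136 reads. H3K4me3 covered 8.2 kb in female KO, 7.4 kb in male KO and 2.2 kb in WT, with 1386, 780 and 79 reads, log2 differences of 2.18 and 2.08. H3K27ac had 579 and 584 reads. On chr11:18912601-18923800 H3K27me3 covered 3 kb in WT with 63 reads, and H3K4me3 had 636 reads in WT, 2462 in female KO and 1101 in male KO. On chr1:34059801-34072400 and chr3:5215001-5231000 H3K27me3 in WT covered 3.4 and 1.4 kb with 51 and 21 reads. H3K27me3 in WT thus ranged, among the members of this kind that were taken, from a small part of the member to nearly all of it.

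H3K27me3 in both KO lines and not in WT was longest, among the 5 taken, on chr4:119795401-119847000, over 50.8 kb with 3091 reads in female KO and 43.2 kb with 1827 reads in male KO. H3K27ac covered 8.8 kb in female KO and 51.6 kb in male KO, with 388 and 3209 reads. H3K4me3 was called in male KO with 199 reads and in WT with 98, and not in female KO. On chr4:129172401-129184600 H3K27me3 covered 12.2 kb in female KO and 2.8 kb in male KO. On chr13:52673401-52686600, chr15:66863001-66878200 and chr2:167706201-167721800 it covered 1.4, 8.6 and 12.8 kb in female KO and 0.6, 2 and 1.8 kb in male KO. In each of these 5 members the male KO part was shorter than the female KO part.

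The promoter mark itself was in both KO lists and not in WT on chr3:52856001-52871800, with 126 H3K4me3 reads over 2.6 kb in female KO and 102 over 2.8 kb in male KO. On chr16:92817601-92831000 it had 1101 reads over 6.6 kb in female KO and 78 over 2.2 kb in male KO. H3K27ac there had 703 and 664 reads, so the KO lines were close in acetylation and far apart in H3K4me3. A member on chromosome 18 had 250 and 67 H3K4me3 reads beside 722 and 1006 H3K27ac reads. In the 5 members of this kind that were taken, WT H3K27me3 was called at 1, on chr9:119466601-119489800.

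H3K27ac itself was of moderate strength at members. Its median density was 42.7 reads per kb in female KO and 53.3 in male KO, against 59.6 and 77.9 at promoter-like regions of all 3 lists. Members had a median width of 5.4 kb and ranged from 0.8 to 52.2 kb. Female KO covered a median of 5 kb and male KO a median of 3 kb. All members had windows that both KO lists cover, and both lists each covered at least 50% of 807 members.

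To set these reads against the WT library, KO counts were multiplied by the ratio of WT to KO read density over shared windows. The scaled reads had a median of 120 in female KO and 73.9 in male KO, against a median count of 121 in the WT list. In both KO lines 1080 members reached 31 scaled reads, the 5th percentile of WT counts, and 205 reached 121. Among these 205, WT H3K4me3 was at 73.7% and WT H3K27me3 at 15.6%. Members with as many scaled reads as a typical WT region thus had WT H3K27me3 about as often as all members and WT H3K4me3 less often. Reads were taken per member and not per kb, so wide members reach 121 more readily. Over all members the WT H3K4me3 share fell with width, 93.4% below 4 kb, 87.2% from 4 to 8 kb and 72.3% from 8 kb on. The part of width in the 73.7% was not tested.

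WT H3K27ac was usually some distance away. The median distance from a member to the nearest WT H3K27ac region was 35.4 kb, and 103 members, 8.71%, had one within 5 kb. Just inside the criterion, chr8:125859801-125871800 touched a WT region without overlap, and chr4:62140401-62144200 and chr3:60299001-60301800 lay 0.2 and 0.4 kb from one. Just outside it, WT H3K27ac covered 0.4 kb of chr8:20019801-20020600 with 30 reads, of chr8:28246801-28249600 with 13 and of chr9:19426201-19429200 with 23. In all, 92 promoter-like regions of the 3 lists had at most 1 kb of WT H3K27ac.

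Members were unevenly spread over chromosomes. Of all promoter-like H3K27ac regions, 9.04% were members, a share the criteria set. On chromosome 4 it was 16.0% (13.7 to 18.6%), 141 of 880 regions, on chromosome 6 13.6% and on chromosome 13 12.7%. The lowest shares were 4.60% on chromosome 19 (3.0 to 7.1%) and 4.84% on chromosome 10. Reads in shared windows on chromosome 4 were also high in the KO lines for all 3 marks. Relative to the median autosome, the log2 difference from WT on chromosome 4 was 0.35 in female KO and 0.12 in male KO for H3K27ac. It was 0.34 and 0.19 for H3K4me3 and 0.52 and 0.31 for H3K27me3. The part of this in the number of members on chromosome 4 was not tested. Members of chromosome 4 had WT H3K27me3 at 4.26%, and without that chromosome the WT share over members was 18.5%.

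**Figure D5:**
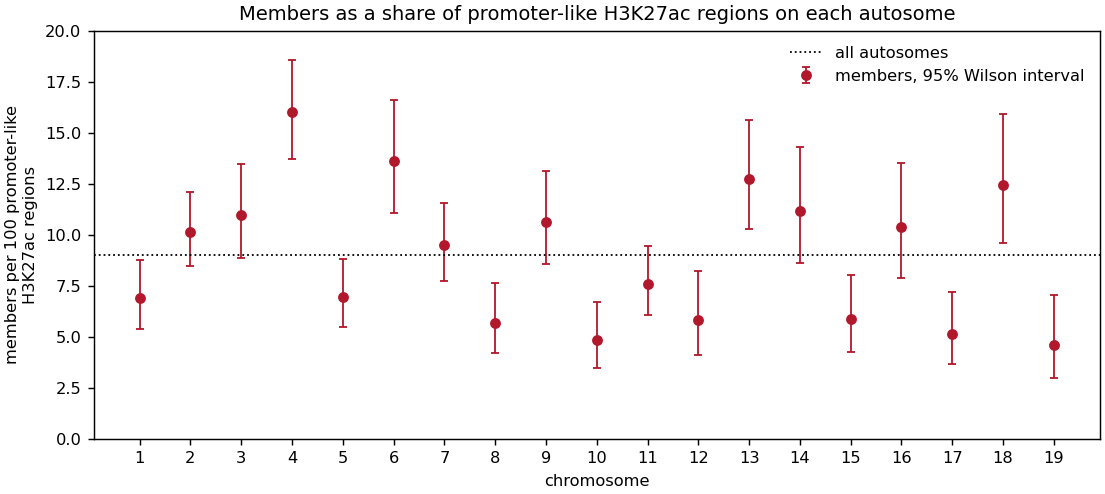
Members as a share of all promoter-like H3K27ac regions (y axis, %) on each autosome (x axis), with 95% Wilson intervals; the dotted line is the share over all autosomes, 9.04%. Chromosome 4 stands at 16.0% and chromosome 19 at 4.60%.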

How the data were processed

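The labels cover 9 ChIP-seq libraries, and the submitters' processing notes name Bowtie 1.1.2, SICER 1 and build mm9. SICER joins windows richer in reads than a background into regions. The authors deposited 1 list per library with chromosome, start, end and a whole number, taken here for the region's read count from its values and from SICER's usual layout, as no list has a header. Control, false discovery rate and sequencing depth: not given in the sources used here. Python 3.11.15, numpy 2.4.6 and pandas 2.3.3 turned the lists into 200 bp windows, with a region's count spread evenly over it. Membership was recomputed with bedtools 2.31.1 and differed at 0 regions, and the scripts were tested on simulated data. Coordinates are 1-based. The gene and promoter tables used here belong to GRCm38.p6, another build, so genes and sequences are not shown. The regions named are, in each class by WT state, the 5 members with the highest smaller KO H3K27ac count, likewise for H3K27me3 in WT and neither KO, H3K27me3 in both KO lines and not WT, and H3K4me3 in both KO lines and not WT. Members, lists and alternatives were chosen with earlier results of these data known. The alternatives changed the minimum count, merging distance, overlap and H3K4me3 criteria, depth scaling, centring and the KO line used.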

Additional observations from a re-analysis of the deposited data

Results flagged for a closer look

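In 2 measures the medians of the KO lines had opposite signs relative to WT, and these differences were not tested. At members with H3K27me3 windows held by all 3 lists, the median centred log2 difference from WT was 0.268 in female KO and -0.0388 in male KO. The male KO quartiles of -0.23 and 0.14 span 0, and without centring both medians were above WT, 1.75 and 0.24. At members with H3K4me3 in all 3 lines, the median length of H3K4me3 minus the 3.6 kb of WT was 0.6 kb in female KO and -0.2 kb in male KO. Female KO was longer than WT at 619 of these 977 members and shorter at 75, and male KO was longer at 285 and shorter at 470. The same signs were seen at 8186 promoter-like regions of all 3 H3K27ac lists, with medians of 6 kb in WT, 6.8 kb in female KO and 5 kb in male KO, so they are not particular to members. With 1 library per line, the spread behind these values is unknown.

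Chromosome X lay outside the criteria. Of its 421 promoter-like regions, 44 had H3K27ac called in both KO lines and missed in WT, 10.5%, near the 9.04% of the autosomes, and 15 were of WT and neither KO. The part of sex in these counts was not tested.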

How the results depend on the processing

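Of 114 values under other settings, 85 stayed within the interval of the share as reported or within 1.5 times the count as reported. All values of the depth-scaled lists are among the 85, and that scaling removed almost no regions. Shares below are shares of the members under each setting. With H3K27ac regions at or above their list's median count, 1074 regions qualified, of which 151 overlapped a member and 923 overlapped a deposited WT H3K27ac region that this setting drops. Their WT H3K4me3 share was 93.3%, WT H3K27me3 6.42%, H3K4me3 in both KO lines and not WT 2.79%, and H3K27me3 25.6% in female KO and 9.31% in male KO. H3K27me3 was in WT and neither KO at 7 and in both KO lines and not WT at 49, and H3K4me3 passed 2-fold in both at 11. Requiring H3K4me3 of both KO lines gave a WT H3K4me3 share of 92.2%. Marks over at least 1 kb gave H3K27me3 in male KO at 15.4%. Without centring, 21 members passed 2-fold in both KO lines.

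The remaining settings were chosen after seeing the data. Asking for H3K27ac in male KO and not WT, whatever female KO had, gave 2158 members. WT H3K4me3 was at 76.1% of them, WT H3K27me3 at 27.7%, and H3K27me3 at 46.4% in female KO and 29.7% in male KO. Asking the same of female KO, whatever male KO had, gave 1763 members, with WT H3K4me3 at 78.6% and male KO H3K27me3 at 20.5%. Both sets include all members as reported and are not the regions of a single KO line. Scaled KO reads at or above the WT median left 205 members, with WT H3K4me3 at 73.7%, H3K4me3 in both KO lines and not WT at 10.7% and male KO H3K27me3 at 15.6%. Of these, 7 had H3K27me3 in WT and neither KO, 12 in both KO lines and not WT, and 13 passed 2-fold. KO H3K27me3 lists shortened to the WT covered length gave 9.55% in female KO and 11.1% in male KO, 100 members with H3K27me3 in WT and neither KO and 15 with it in both KO lines and not WT; shortening the KO lists alone moves these by construction. For the others the cause was not tested. Scaling the lists by depth as planned removed at most 1 member. It dropped only regions whose scaled count fell below the lowest count of the list with the lowest read density. For H3K27ac that count was 11, and the male KO list went from 23965 to 23959 regions. This setting could therefore hardly show an effect of depth, and nothing is concluded from it. No paired analysis was possible because each line and mark has 1 library, and for the same reason no replicate could be left out. Depth limits the WT H3K27ac and H3K27me3 lists most: a weak WT region may have gone uncalled.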
